A study of Mus musculus with 9 samples.

Results

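Pecam1, Cdh5, Vwf, Cldn5, Nos3, Eng, Egfl7, Ednrb, Aplnr and Car4 are genes that mark the endothelium, the cell layer that lines blood vessels. These 10 genes were chosen by name as endothelial identity genes, with earlier results of these data known, out of 19698 genes represented on the arrays. Each was read from its brightest probe on microarrays of mouse lung RNA. The study asked how radiation to the left lung changes gene expression there. Of its arrays, 9 were analysed, each labeled in a single color. The 4 control arrays and the 5 irradiated arrays all carried lung RNA from 10-week-old male C57BL/6 mice without a transgene or deletion in their labels. The irradiated group had received a single dose to the left lung under anesthesia with zoletil and rompun. No label names the dose, the region sampled or the time for an irradiated array, so the 5 irradiated arrays may differ in each of these. RNA was pooled over triplicate experiments before labeling, so a p-value measures the spread between these arrays and not between mice.

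Endothelial cells are held together by adhesion proteins at their borders, store clotting and growth factors, and set vessel tone through nitric oxide, endothelin and apelin. In the alveolar wall of the lung they form a capillary bed of 2 cell types. Aerocytes are large, thin cells at the gas exchange surface, known for Car4, Ednrb and the ligand Apln, and general capillary cells act as their progenitors, known for Aplnr and Kit. Transcription factors of the ETS family, such as Erg and Fli1, maintain many endothelial genes.

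None of the 10 genes passed the test for a difference between irradiated and control lung over all 9 arrays without pairing. The receptor Aplnr stood lowest against control, with a log2 difference of -0.57 and an unadjusted p of 0.00941 (limma). The differences of the other 9 genes lay between -0.27 and 0.27. On the brightest probe of each gene, Nos3 and Egfl7 hardly varied over the 9 arrays, whereas Car4, Cdh5 and Ednrb varied by more than 1 log2 unit. All differences are irradiated minus control on the log2 intensity scale, where 1 unit is a doubling of the intensity. They were tested with limma and Benjamini-Hochberg adjustment over 39302 probes at an adjusted p under 0.05. At that threshold 0.333% of all probes passed, and 9.94% had an unadjusted p under 0.05, against 0 and 1 of the 10 genes. With tissue RNA, fewer cells of a type and less RNA per cell cannot be told apart.

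Every one of the 10 genes was well above background on all 9 arrays, so each endothelial marker was present in each RNA. The labelled tissue was checked with the measured type II alveolar, type I alveolar and airway markers, all of which were well above background on every array. Of all spots, 72.8% to 89.1% per array were well above background and none was saturated, and precision is limited by how many arrays there are. No array stood apart in all 10 genes. On single control arrays the median deviation of the 10 genes from the control means ran from -0.09 to 0.10. On single irradiated arrays it ran from -0.28 to 0.11, lowest on irradiated arrays 4 and 5.

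**Figure D1:**
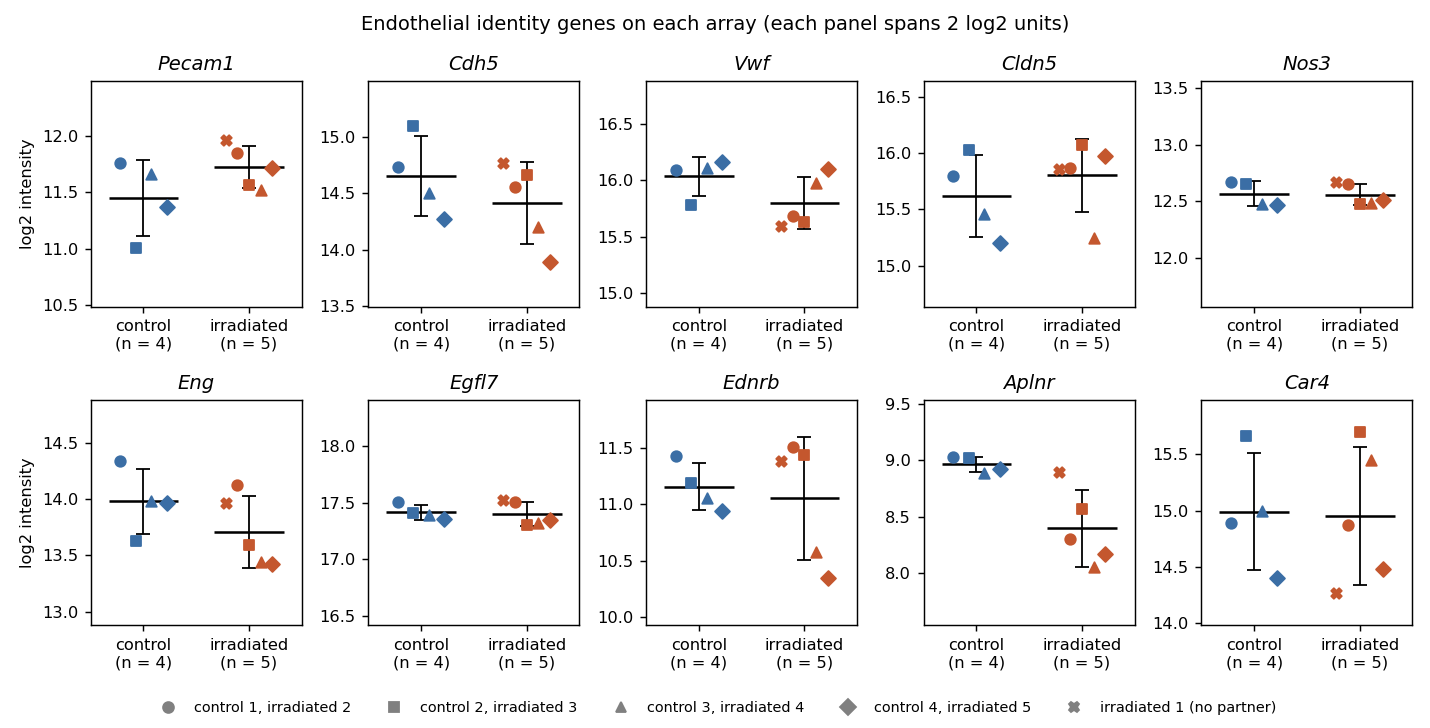
Log2 intensity (vertical axis, 2 log2 units in each panel) of the 10 endothelial identity genes on the 4 control and 5 irradiated arrays, with the group mean (line) and SD (bar). Equal symbols mark arrays paired by their scan images. In Aplnr 4 of 5 irradiated arrays lie below all controls, while Nos3 and Egfl7 span no more than 0.22 log2 units over the 9 arrays.

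The proteins of the cell border were described first. Pecam1 encodes an adhesion protein that endothelial cells share with platelets and leukocytes. Its log2 intensity was 11.76, 11.01, 11.66 and 11.37 on control arrays 1 to 4 and 11.97, 11.85, 11.57, 11.52 and 11.71 on irradiated arrays 1 to 5. Control array 2 was the lowest, 2 irradiated arrays lay above all controls, and the groups overlapped. The means were 11.45 ± 0.34 (SD, n = 4) and 11.72 ± 0.19 (SD, n = 5). The difference was 0.27 (SE 0.16, 95% interval -0.09 to 0.63), with an adjusted p of 0.659 from limma and an exact two-sided permutation p of 0.167. The smallest p this permutation test allows is 0.00794.

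Cdh5 encodes VE-cadherin, the adherens junction protein that binds endothelial cells to each other. The log2 intensity of Cdh5 was 14.74, 15.10, 14.50 and 14.27 on the control arrays and 14.76, 14.56, 14.66, 14.20 and 13.89 on the irradiated arrays. Irradiated arrays 4 and 5 were the lowest of all 9, and the other 3 irradiated arrays lay within the control range. The difference was -0.24 (SE 0.21, 95% interval -0.71 to 0.23, adjusted p 0.810, limma), smaller than the SD of 0.35 among control arrays.

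Cldn5 encodes claudin-5, the tight junction protein typical of endothelium. On the log2 scale its intensity was 15.79, 16.02, 15.46 and 15.20 on the control arrays and 15.85, 15.87, 16.07, 15.25 and 15.97 on the irradiated arrays. Of the irradiated arrays, 4 lay close together near the top of the control range and irradiated array 4 lay near its bottom. The difference was 0.18 (SE 0.20, 95% interval -0.26 to 0.63, adjusted p 0.856, limma), within the spread of both groups. Of 19 other claudins, 0 passed the test in limma and 5 had an unadjusted p under 0.05. Their differences ran from -2.23 for Cldn22 to 3.45 for Cldn2, with adjusted p of 0.294 and 0.164 from limma. Cldn22 was well above background on 8 of the 9 arrays, with log2 intensities of 7.90 to 9.97 on the control arrays and 4.79 on irradiated array 1. Cldn2 was well above background on 6 of the 9 arrays. It was dim on the control arrays, at 3.23 to 5.33, and on irradiated array 1, at 4.83. On irradiated arrays 2 to 5 it was 6.66, 8.76, 8.83 and 9.27. With arrays paired by their scans, as described further on, 5 claudins passed in limma, where 2.8% of all probes did. Cldn2 was higher (adjusted p 0.0415), and Cldn3, Cldn8, Cldn10 and Cldn22 were lower, with adjusted p from 0.0223 to 0.0392.

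Of 10 further genes of endothelial junctions, among them the tight junction gene Tjp1 and the catenin gene Ctnnb1, 0 passed the test in limma and 0 had an unadjusted p under 0.05. Their differences ran from -0.19 for Pkp4 to 0.21 for Jam3, and their median was -0.04, against -0.0037 over all probes tested. None of these junction genes differed by as much as Cdh5.

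RefSeq promoter windows (mouse assembly GRCm38.p6, 250 bases before to 50 bases after a transcript start) were found for 5 of the 10 genes, 7 windows in all, and are shown for 3 genes that differed in their values. The windows were searched on both strands for AGGAAG and CGGAAG, core letters that ETS factors bind. The pair differs in the first letter, so the same letters of a strand cannot be both. Either core was found in 4 of the 7 windows, and in 46.5% of all 32851 windows of this length. The Cldn5 window, chr16:18776597-18776896 on the plus strand, has neither core. It is shown because Cldn5 was among the 2 genes with a positive difference.
Cldn5: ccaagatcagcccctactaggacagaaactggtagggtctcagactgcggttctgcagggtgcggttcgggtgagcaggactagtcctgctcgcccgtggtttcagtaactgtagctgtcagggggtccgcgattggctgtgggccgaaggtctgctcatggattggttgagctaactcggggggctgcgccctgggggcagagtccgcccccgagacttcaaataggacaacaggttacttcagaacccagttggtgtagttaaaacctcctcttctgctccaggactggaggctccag

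The products that endothelial cells release were next. Vwf encodes von Willebrand factor, the clotting protein stored in endothelial cells and in platelets. Log2 intensities of Vwf were 16.09, 15.78, 16.10 and 16.16 on the control arrays and 15.60, 15.68, 15.63, 15.98 and 16.10 on the irradiated arrays. Irradiated arrays 1, 2 and 3 lay below all controls, and the other 2 lay within the control range. The difference was -0.24 (SE 0.13, 95% interval -0.52 to 0.05), with an adjusted p of 0.617 from limma and an exact permutation p of 0.127.

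Platelet genes were read beside Vwf and Pecam1, which platelets also contain. Of 8 platelet genes, 0 passed the test in limma and 6 had an unadjusted p under 0.05. All 8 differences were negative, with a median of -0.66, and that of Ppbp, a platelet chemokine, was -0.99 (SE 0.17, adjusted p 0.0513, limma). The summed intensity of the 8 genes was 93.3% to 118% of the control mean in controls and 57.3% to 91.7% in irradiated lung, which did not overlap. Each of the 8 was well above background on every array. With arrays paired by their scans, as described further on, 0 of the 8 passed with the pair as a fixed block. With the pair as a random block 4 passed, among them Ppbp (adjusted p 0.00663, limma), where 7.37% of all probes did. The part of platelet RNA in the values of Vwf was not tested.

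Egfl7 encodes a protein that endothelial cells secrete into the vessel wall. For Egfl7 the log2 intensity was 17.51, 17.41, 17.39 and 17.35 on the control arrays and 17.53, 17.51, 17.31, 17.32 and 17.35 on the irradiated arrays. All 9 values lay within 0.22 log2 units, and 0.836% of all probes had a smaller range. The difference was -0.012 (SE 0.078, 95% interval -0.19 to 0.16, adjusted p 0.993, limma), an interval from 0.879 to 1.12 times the control intensity. Egfl7 has 3 RefSeq promoter windows. The first holds 3 and the second 2 matches to AGGAAG, and the third holds none. The second, chr2:26583615-26583914 on the plus strand, is shown in lower case with its ETS cores in capitals, at bases 171 and 291 of the window, because Egfl7 was among the 2 steadiest genes.
Egfl7: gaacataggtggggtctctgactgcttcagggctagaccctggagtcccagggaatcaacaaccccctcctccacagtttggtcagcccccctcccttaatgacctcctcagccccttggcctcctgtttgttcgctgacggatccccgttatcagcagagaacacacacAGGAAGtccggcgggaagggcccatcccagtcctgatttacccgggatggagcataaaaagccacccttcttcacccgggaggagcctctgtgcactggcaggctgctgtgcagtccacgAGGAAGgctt

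The enzymes differed most in how far their values spread. Nos3 encodes endothelial nitric oxide synthase, which makes the nitric oxide that relaxes vessels. The Nos3 values, as log2 intensities, were 12.67, 12.65, 12.48 and 12.46 on the control arrays and 12.67, 12.65, 12.48, 12.48 and 12.51 on the irradiated arrays. The values of both groups covered the same narrow range of 0.21 log2 units, and 0.615% of all probes had a smaller range. The difference was -0.0072 (SE 0.084, 95% interval -0.19 to 0.18, adjusted p 0.999, limma), an interval from 0.874 to 1.13 times the control intensity. A second Nos3 probe gave 0.10 (SE 0.11, adjusted p 0.867, limma), with an interval from 0.900 to 1.27 times. That probe had a wider range over the 9 arrays, 0.53 log2 units.

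Among 15 other genes of the nitric oxide pathway, 1 passed the test, higher in irradiated lung, where 0.191% of all probes passed in that direction. This was Gch1, which makes the cofactor that nitric oxide synthases need. The log2 intensities of Gch1 were 12.54, 12.27, 12.21 and 12.44 on the control arrays and 12.74, 13.09, 13.23, 13.11 and 13.19 on the irradiated arrays. All irradiated values lay above all controls, as for 2.51% of all probes. Gch1 rose by 0.71 (SE 0.12, adjusted p 0.0456, limma). The call was lost when any single array other than irradiated array 1 was left out, and over the settings tried the adjusted p ran from 0.00194 to 0.355. The lowest difference was that of Ddah2, which degrades an inhibitor of the synthases, at -0.17. The median of the 15 genes was 0.11.

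Car4 encodes a carbonic anhydrase on the surface of lung capillaries and is used as an aerocyte marker. Its brighter probe gave log2 intensities of 14.89, 15.66, 15.00 and 14.40 on the control arrays and 14.27, 14.87, 15.70, 15.45 and 14.48 on the irradiated arrays. The highest and the lowest array were both irradiated, and the range of 1.43 log2 units was the widest of the 10 genes. The difference was -0.035 (SE 0.33, 95% interval -0.77 to 0.70, adjusted p 0.998, limma), an interval from 0.588 to 1.62 times the control intensity. The dimmer Car4 probe gave 12.49, 11.77, 12.08 and 11.81 on the control arrays and 12.52, 12.90, 12.71, 11.97 and 12.05 on the irradiated arrays, a difference of 0.40 (SE 0.22, adjusted p 0.627, limma). Control array 2 was the highest control on the brighter probe and the lowest on the dimmer one, so the 2 probes did not order the arrays alike. Of 14 other carbonic anhydrases measured, 0 passed the test in limma and 5 had an unadjusted p under 0.05. Their differences ran from -2.76 for Car3, an enzyme of muscle and fat, to 0.79 for Car9, which is induced by low oxygen and passed within the scan pairs (0.80, adjusted p 0.0334, limma). Beside Car3, the summed intensity of 5 adipocyte genes was 73.7% to 132% of the control mean in controls and 10.3% to 87.2% in irradiated lung, and the part of fat tissue in it was not tested.

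The last group were the receptors. Eng encodes endoglin, a co-receptor for BMP9 and related ligands of the TGF-beta family. Eng had log2 intensities of 14.34, 13.63, 13.98 and 13.96 on the control arrays and 13.97, 14.12, 13.59, 13.44 and 13.43 on the irradiated arrays. Irradiated arrays 3, 4 and 5 lay below all controls and the other 2 lay within the control range. The difference was -0.27 (SE 0.18, 95% interval -0.67 to 0.13), with an adjusted p of 0.716 from limma and an exact permutation p of 0.222. The Eng promoter window, chr2:32646345-32646644 on the plus strand, holds AGGAAG at base 199 on the opposite strand and at base 245 on its own strand, in capitals. It is shown because Eng was among the genes lower in every scan pair.
Eng: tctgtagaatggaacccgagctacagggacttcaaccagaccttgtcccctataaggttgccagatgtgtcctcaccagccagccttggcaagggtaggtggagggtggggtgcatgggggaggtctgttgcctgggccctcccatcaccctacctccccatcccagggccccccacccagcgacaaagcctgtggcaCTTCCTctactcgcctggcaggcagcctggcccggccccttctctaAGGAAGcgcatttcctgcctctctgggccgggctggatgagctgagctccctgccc

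Of 15 further genes of the endoglin pathway, 0 passed the test in limma and 5 had an unadjusted p under 0.05. The endothelial receptor Acvrl1, the partner of endoglin, had a difference of -0.41 (SE 0.13, adjusted p 0.286, limma) and the inhibitory Smad6, a target of the pathway, -0.66 (SE 0.19, adjusted p 0.224, limma). The lowest was the ligand Gdf2, or BMP9, at -1.03, from a dim probe that was well above background on 8 of the 9 arrays, and the highest was the receptor Tgfbr2 at 0.39. The target genes Id1, Id2 and Id3 had differences of 0.25, 0.18 and 0.17. The median of the 15 genes was -0.10. With arrays paired by their scans, as described further on, Acvrl1 fell by 0.50 (adjusted p 0.0285, limma with the pair as a block) and Smad9, a transducer of the pathway, by 0.70 (adjusted p 0.0354). Smad6 passed only with the pair as a random block (adjusted p 0.0132), as did Tgfbr1 and Tgfbr2, which rose by 0.30 and 0.40 there.

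Ednrb encodes the endothelin receptor type B, an aerocyte marker that also clears endothelin from the blood. The brighter Ednrb probe had log2 intensities of 11.43, 11.19, 11.06 and 10.94 on the control arrays and 11.38, 11.51, 11.44, 10.58 and 10.35 on the irradiated arrays. Irradiated arrays 1, 2 and 3 lay near or just above the top of the control range, and arrays 4 and 5 lay below all controls. The SD was 0.54 among irradiated arrays and 0.21 among controls, and the difference was -0.10 (SE 0.25, 95% interval -0.67 to 0.46, adjusted p 0.962, limma). The second Ednrb probe gave -0.19 (SE 0.33, adjusted p 0.925, limma). On that probe the SD was 0.55 among irradiated arrays and 0.58 among controls, so the wider spread of irradiated arrays was not seen. There only irradiated array 4 lay below all controls, and no irradiated array lay above them.

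Aplnr encodes the apelin receptor of general capillary cells. Aplnr had log2 intensities of 9.03, 9.02, 8.89 and 8.93 on the control arrays and 8.90, 8.30, 8.57, 8.05 and 8.17 on the irradiated arrays. The 4 controls lay close together, irradiated arrays 2 to 5 lay below all of them, and irradiated array 1 lay at the control level. The means were 8.97 ± 0.067 (SD, n = 4) and 8.40 ± 0.34 (SD, n = 5), which is 0.674 times the control intensity (95% interval 0.513 to 0.887). The adjusted p was 0.265 (limma), so the gene did not pass the threshold in the comparison of all 9 arrays. It passed when arrays were paired by their scans, as described further on (adjusted p 0.0402 as a fixed and 0.0120 as a random block). Over all 9 arrays the exact permutation p was 0.0238, unadjusted for the 10 genes. Without irradiated array 1 the difference was -0.69 with an adjusted p of 0.0620 (limma). Over the 20 settings tried it lay between -0.69 and -0.40, negative in each.

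The ligand of this receptor was read from its own probe. Apln gave log2 intensities of 12.01, 11.72, 11.91 and 11.92 on the control arrays and 12.95, 13.55, 13.31, 12.60 and 12.23 on the irradiated arrays. All 5 irradiated arrays lay above all controls, an arrangement found for 2.51% of all probes. The difference was 1.04 (SE 0.24, 95% interval 0.51 to 1.57), and its adjusted p of 0.124 (limma) missed the threshold, which it passed only when the pairs entered as a random block (adjusted p 0.0139). Of the 7 endothelin and apelin genes measured, 0 passed the test in limma and 1, Apln, had an unadjusted p under 0.05. The summed intensity of the 7 was 91.2% to 107% of the control mean in controls and 112% to 155% in irradiated lung. That sum includes Apln itself, and Ednra, with a difference of 0.18, supplied 56.1% of it in controls. The part of Apln in these sums was not tested. The endothelin genes Edn1, Edn2 and Edn3 had differences of 0.30, 0.24 and 0.60 with wide standard errors of 0.46, 0.64 and 0.35. The lowest of the list was the endothelin-converting enzyme Ece1, at -0.18.

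Genes with a profile most like that of Aplnr over the 9 arrays were Fxyd3, Frat1 and Pxmp2. The likeness was the root mean square distance between log2 profiles after each was centered on its control mean, and it was 0.10, 0.12 and 0.13 log2 units. Fxyd3, a regulator of ion transport, had a difference of -0.52 (SE 0.17, adjusted p 0.306, limma). The nearest of the 10 endothelial genes was Cdh5, at a distance of 0.34, and the farthest was Car4, at 0.72.

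Taken as a list, 8 of the 10 differences were negative and 2 positive, where 50.8% of all probes were negative. The median was -0.07, against -0.0037 over all probes. For all 10 genes the 95% interval lay within 1 log2 unit of 0, as it did for 75.5% of all probes. No gene had its irradiated arrays all below or all above the control arrays, which held for 1.65% and 2.51% of all probes. The summed intensity of the 10 genes was 90.7% to 107% of the control mean in controls and 92.1% to 101% in irradiated lung. Egfl7 supplied 45.7% of that sum in controls, and without it the sums were 86.3% to 113% and 89.6% to 107%.

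**Figure D2:**
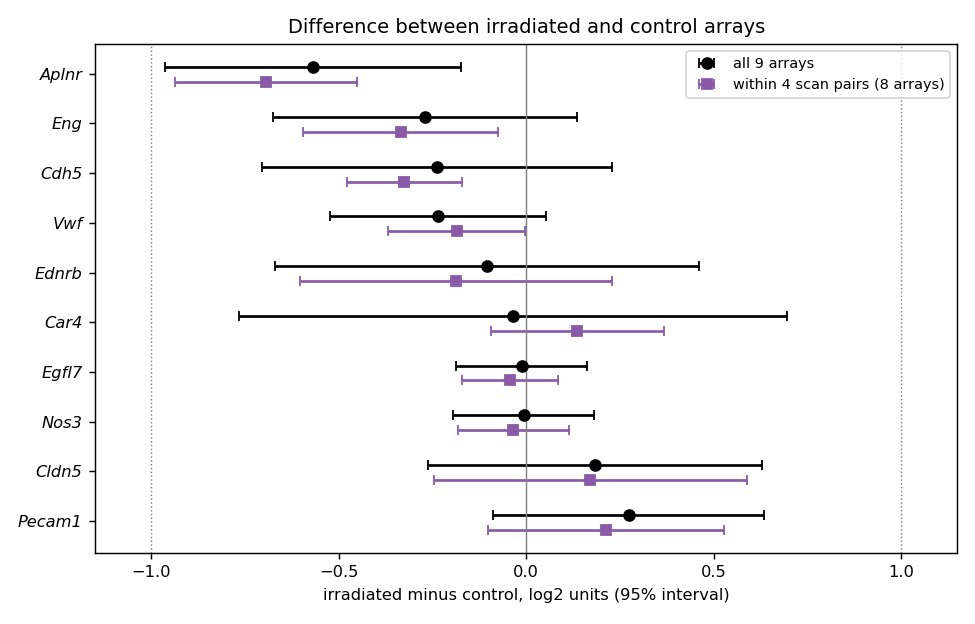
Difference between irradiated and control arrays in log2 units with its 95% interval, for each of the 10 genes, over all 9 arrays (circles) and within 4 scan pairs (squares). Dotted lines mark 1 log2 unit. Aplnr is lowest in both, and all intervals stay within 1 log2 unit of 0.

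A further reading of the arrays used their scans. The position across each scan image was taken as the remainder after whole spacings between arrays on a slide were removed. By this remainder control array 1 was paired with irradiated array 2, control 2 with irradiated 3, control 3 with irradiated 4, and control 4 with irradiated 5. Within these pairs the remainder differed by at most 1.20 pixels and the position down by at most 3.91 pixels. Paired arrays may thus lie at different places on a slide. The median local background was 43.5 intensity units on control array 2 and 45.5 on irradiated array 3. In the other pairs it differed by at most 1.5 units. No label names these pairs and irradiated array 1 has no partner. The deviations of paired arrays from their group means, taken across probes, correlated at 0.20 to 0.46. The pairs were therefore used as a block, in which 2.8% of all probes passed the threshold, 1.26% lower and 1.54% higher.

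Within the pairs, 4 of the 10 genes were lower on the irradiated array in all 4, and 0 were higher in all 4, where 16.8% and 14.7% of all probes were. Aplnr differed by -0.73, -0.45, -0.84 and -0.76, with a mean of -0.69 and an adjusted p of 0.0402 (limma with the pair as a block), and was the only one of the 10 genes past the threshold there. When any 1 pair was left out, the difference was -0.64 to -0.77 and the adjusted p 0.0544 to 0.203, past the threshold in none, with fewer arrays in the fit. With the pair as a random block over all 9 arrays, Aplnr differed by -0.64 with an adjusted p of 0.0120, in a fit that passed 7.37% of all probes, 3.28% lower, and none of the other 9 genes.

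Cdh5 differed by -0.18, -0.44, -0.31 and -0.38 within the pairs, a mean of -0.33 with an adjusted p of 0.0624 in the block fit of limma. Eng differed by -0.22, -0.04, -0.54 and -0.54, a mean of -0.33 with an adjusted p of 0.157. Vwf differed by -0.41, -0.15, -0.12 and -0.06, a mean of -0.19 with an adjusted p of 0.235. In Eng and Vwf at least 1 pair came close to 0, which no pair did in Cdh5. The brighter Car4 probe had a mean of 0.14 (adjusted p 0.458), opposite in sign to its difference over all arrays, and the median over the 10 genes was -0.11, against -0.022 over all probes.

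**Figure D3:**
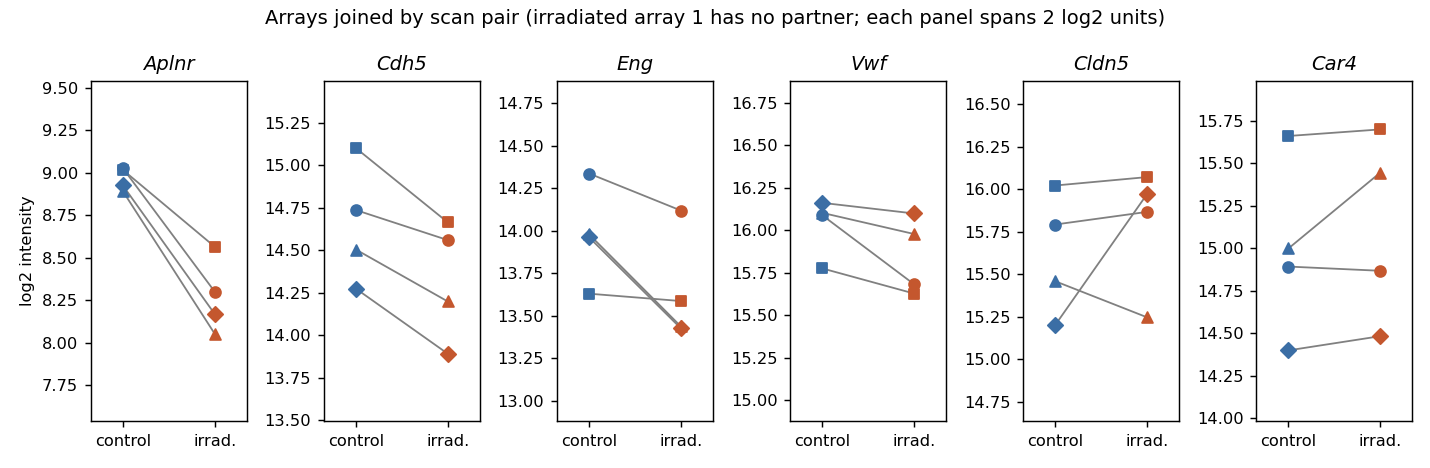
Log2 intensity (vertical axis, 2 log2 units in each panel) of 6 endothelial identity genes on control and irradiated arrays joined by scan pair. In Aplnr, Cdh5, Eng and Vwf all 4 lines run downward, whereas those of Cldn5 and Car4 run both ways.

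The 10 genes were set beside 110 genes of related endothelial lists. Of these, 68 had a negative difference, the median was -0.10, and 1, Gch1, passed the test, where 0.333% of all probes did. Without irradiated array 1, 5 passed, where 1.21% of all probes did: Ptprb, Cyyr1, Kit and Bmx, which fell, and Gch1, which rose. With the scan pairs as a block 13 passed, 10 of them lower, where 2.8% of all probes passed and 1.26% were lower. The lists were chosen with earlier results of these data known. Each gene was read from its brightest probe, unlike the share over all probes. Whether the lists differ from other genes was therefore not tested.

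Of 20 other pan-endothelial genes, 0 passed the test in limma over all 9 arrays and 7 had an unadjusted p under 0.05. The lowest was Tek, the angiopoietin receptor, at -0.71 (SE 0.25, adjusted p 0.344) and the highest was Cd34, a surface sialomucin, at 0.66 (SE 0.14, adjusted p 0.0857). Within the scan pairs Cd34 rose by 0.59, and Ptprb, a phosphatase that acts on junctions and on Tek, fell by 0.66, each past the threshold of the block fit. Tie1, Tspan7 and Cyyr1 also fell there, by 0.31, 0.52 and 0.57. With the pairs as a random block Tie1 did not pass (adjusted p 0.0559, limma). Tek passed in that random block only, at -0.80 (adjusted p 0.0274, limma). The median over all 9 arrays was -0.13.

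Endothelial transcription factors had mostly negative differences. Of 15, 0 passed the test in limma and 2 had an unadjusted p under 0.05, and 13 differences were negative with a median of -0.15. Their summed intensity was 96.0% to 103% of the control mean in controls and 86.1% to 93.6% in irradiated lung. Epas1, a hypoxia-inducible factor, supplied 71.0% of that sum and had a difference of -0.17 (SE 0.070, adjusted p 0.444, limma). Without Epas1 the sums overlapped, at 93.4% to 105% and 74.7% to 107%. The ETS genes Erg, Fli1, Ets1 and Ets2 had differences of -0.22, 0.12, -0.08 and -0.08. The lowest was Gata2 at -0.51 and the highest Fli1.

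The 2 capillary cell types were read separately. All 6 general capillary genes were negative, with a median of -0.34, 0 past the threshold in limma and 2 with an unadjusted p under 0.05. The lowest of them was Kit, the stem cell factor receptor, with log2 intensities of 13.29, 13.06, 13.28 and 12.95 on the control arrays and 12.80, 11.82, 12.26, 12.37 and 12.30 on the irradiated arrays. All irradiated values lay below all controls, as for 1.65% of all probes, and the difference was -0.83 (SE 0.17, adjusted p 0.0880, limma), or -0.96 within the scan pairs (adjusted p 0.0448). The highest of the list was Lpl, a lipase, at -0.09. Mast cells also carry Kit. Of 6 aerocyte genes 4 were positive, with a median of 0.15, 0 past the threshold in limma and 1, Apln, with an unadjusted p under 0.05, and the lowest was Fibin at -0.24. Whether the 2 lists differ from each other was not tested.

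Genes of arteries, veins and lymphatic vessels were also read. All 7 arterial genes were negative, with a median of -0.25 and 0 past the threshold in limma, where 3 had an unadjusted p under 0.05. Bmx, an arterial kinase, and Efnb2, the ephrin of arteries, had differences of -0.61 and -0.59 and fell by 0.74 each within the scan pairs, while Gja5, a gap junction gene, was highest at -0.07. The 6 venous genes ran from -0.52 for Slc6a2, a noradrenaline transporter, to 0.43 for Vcam1, an adhesion molecule for leukocytes, with 0 past the threshold in limma and 2 with an unadjusted p under 0.05. Slc6a2 fell by 0.59 within the scan pairs (adjusted p 0.0269). All 6 lymphatic genes were negative, with a median of -0.39, 0 past the threshold in limma and 3 with an unadjusted p under 0.05. They ran from -0.57 for Reln, well above background on only 3 arrays, to -0.13 for Lyve1, the hyaluronan receptor.

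**Figure D4:**
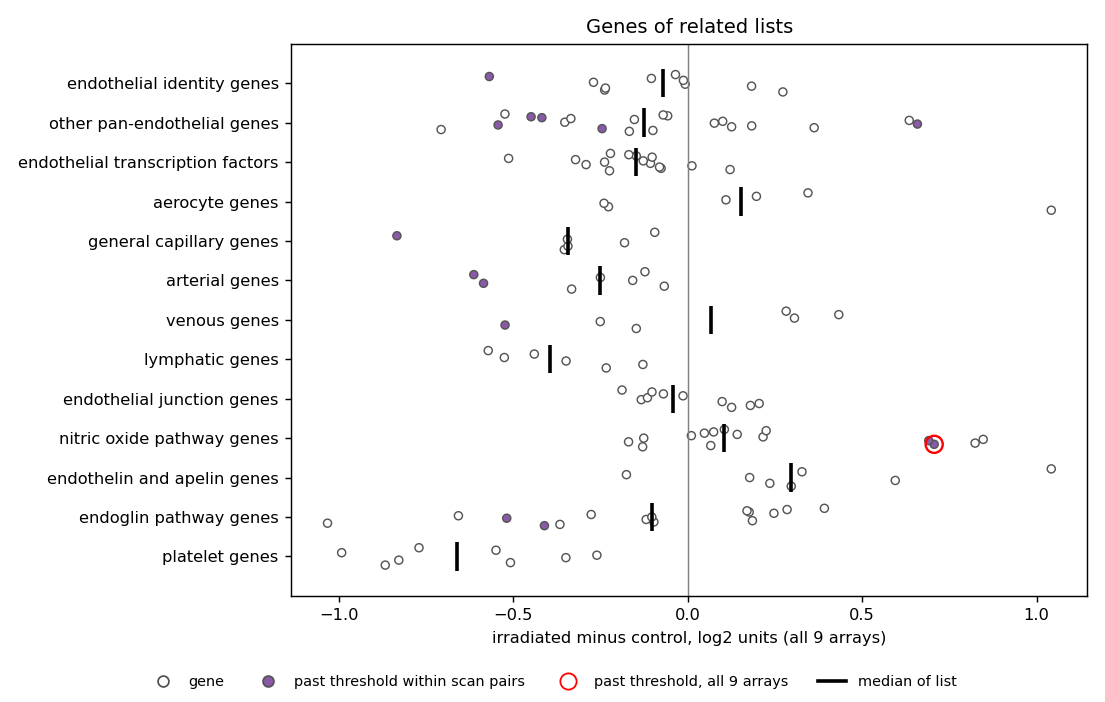
Difference between irradiated and control arrays over all 9 arrays, in log2 units, for each gene (circle) of the endothelial identity genes, 11 related lists and the platelet genes, with the median of each list (bar). Filled circles passed the threshold within scan pairs and the ringed circle, Gch1, passed it over all 9 arrays.

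Markers of other cells were summed in the same way. Smooth muscle genes summed to 81.7% to 112% of the control mean in controls and 49.8% to 88.5% in irradiated lung, and all 5 differences were negative. Type I alveolar genes summed to 94.5% to 107% and 103% to 127%, type II alveolar genes to 97.2% to 102% and 94.2% to 98.1%, and airway genes to 98.3% to 103% and 83.9% to 94.2%. Sftpc supplied 62.1% of the type II sum in controls, and Scgb1a1 supplied 61.6% of the airway sum. Without Sftpc the type II sums were 88.4% to 110% and 83.9% to 94.8%. Without Scgb1a1 the airway sums were 94.5% to 105% and 60.2% to 85.4%. The sums of leukocyte genes were 85.6% to 120% and 79.8% to 131%, and those of pericyte genes, from the cells that wrap capillaries, 83.4% to 120% and 97.7% to 123%. Fibroblast genes summed to 85.1% to 117% and 82.9% to 142%, and mesothelial genes to 59.3% to 168% and 48.0% to 122%. Cardiac muscle genes, which the pulmonary vein wall expresses, summed to 65.0% to 134% and 4.97% to 117%, with the lowest value on irradiated array 1, the array on which Aplnr lay at the control level. Skeletal muscle genes summed to 374% on control array 3, to at most 9.41% on the other controls, and to 3.20% to 6.99% on the irradiated arrays. The part of these other cells in the values of the 10 genes was not tested.

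**Figure D5:**
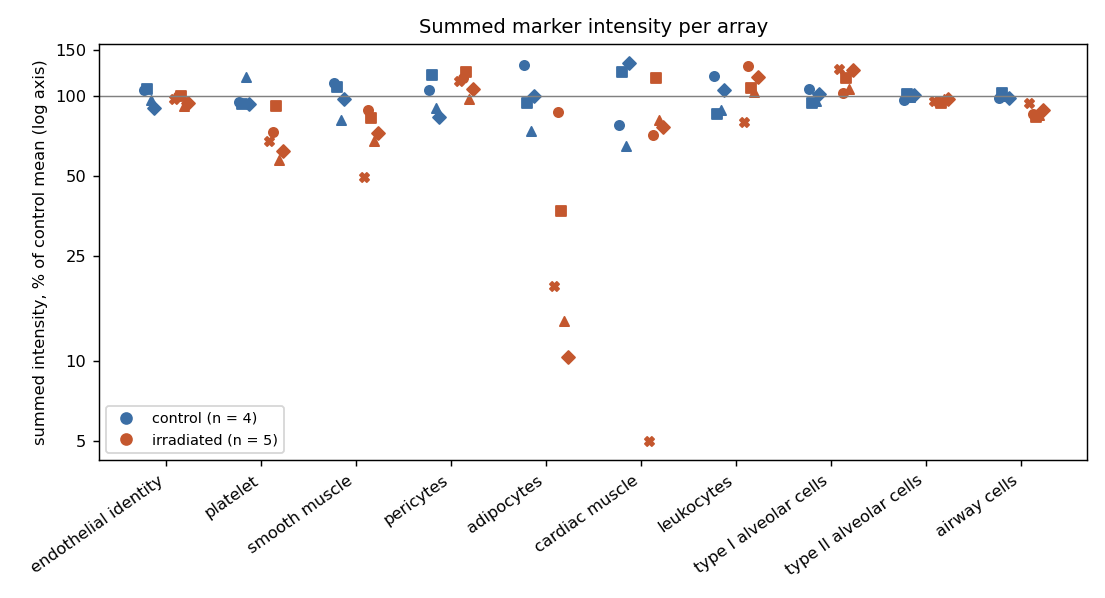
Summed intensity of marker lists on each array as a percent of the control mean (vertical axis, log scale), for 4 control arrays (left of each pair) and 5 irradiated arrays (right). The endothelial identity genes overlap between the groups, at 90.7% to 107% and 92.1% to 101%, while the platelet and the airway sums do not.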

How the data were processed

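The authors scanned 9 single-color Agilent arrays with Feature Extraction software and deposited intensity values per spot, corrected for background but not normalized between arrays. The authors also deposited a table of quantile-normalized intensity values, used as an alternative. The genome build behind the probes is not given in the sources used here. Probes were named through their accessions in a RefSeq table of GRCm38.p6, which gave a symbol to 26055 of 39429 probes. Spots used as controls or marked as uneven were removed, and probes with a signal over 1.4 times local background on at least 4 arrays were kept, which left 39302. The factor is that of the study's methods. Values were put on the log2 scale, quantile normalized and averaged over spots of a probe. Groups were compared with limma (version 3.58.1, R 4.3.3) without covariates, with the variance allowed to follow intensity, and the fit was tested on simulated data. The number of arrays limits the precision.

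Named were all 10 genes, every related gene past the threshold, the highest and lowest of each related list, and the 3 genes nearest in profile to the gene with the largest difference. Other names, such as Smad6 and the Id, Edn and ETS genes, were chosen after their values were seen. Members and lists were chosen with earlier results of these data known. Apela, Car10, Cd68, Rtkn2 and Scgb3a2 were not found through the table and are not analysed here. Replicate numbers did not pair the arrays: deviations of equal numbers correlated at -0.17 to 0.062. Some genes of the lists entered the counts and are not reported here by name.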

Additional observations from a re-analysis of the deposited data

Results flagged for a closer look

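Cldn5, the claudin of endothelial tight junctions, stood at a log2 intensity of 15.25 on irradiated array 4, away from the other 4 irradiated arrays, which lay between 15.85 and 16.07. The gap was 0.735 of the range of the group, above the limit of 0.71 for 5 arrays. Of 20 groups of arrays examined this way, 1 stood out, and chance alone marks about 1 in 20.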

How the results depend on the processing

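Aplnr, Cdh5, Vwf, Eng, Pecam1 and Cldn5 kept their sign in all 20 alternatives, Ednrb in 17, Egfl7 in 15, and Car4 and Nos3 in 10 each. The number of the 10 genes past the threshold was 0 in 18 alternatives and 1, Aplnr, with the scan pairs as a fixed or a random block. The median of the 10 genes lay between -0.20 and 0.0022 when 1 array was left out. Nos3 turned to 0.037 with normexp background correction, 0.017 with scaling to the 75th percentile, 0.021 in the authors' table and 0.045 when a gene's probes were averaged. Car4 turned to 0.024, 0.0034 and 0.18 with normexp, the authors' table and the mean of probes, to 0.066 with array weights, and to 0.14 and 0.068 with the scan pairs as a fixed and a random block. With 1 array left out, Nos3 lay between -0.042 and 0.028, Egfl7 between -0.043 and 0.018, Ednrb between -0.22 and 0.072 and Car4 between -0.23 and 0.19. With the replicate number as a block, Nos3, Egfl7, Ednrb and Car4 were 0.0037, 0.00067, 0.072 and 0.082. That replicate block passed 1 probe in all, 0 of the 10 genes (2 at an unadjusted p under 0.05, limma) and 0 related genes. The cause of these turns was not tested. Of all probes, 131 passed in the comparison as reported, 197 with the background filter on all 9 arrays, 44 in the authors' table, 44 without an intensity trend, 1099 and 2898 with the scan pairs as a fixed and a random block, and 5 to 476 with 1 array left out, the most without irradiated array 1. Related genes past the threshold numbered 1 as reported, 0 in the authors' table and without the trend, 13 and 23 with the scan pairs, and 0 to 5 with 1 array left out. The share of lower calls was 42.7% as reported, 58.1% with the 75th percentile, 50.9% with normexp and 75% in the authors' table. The scan pair block without 1 pair was added after seeing the data. The mean signal was not used for normexp, which ran on the median signal.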
